A study of Mus musculus with 2 samples.

Results

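The Mir23, Mir27 and Mir24 genes form 2 paralogous clusters in the mouse, one led by Mir23b on chromosome 13 and one led by Mir23a on chromosome 8. The 6 member genes were taken by symbol from the tables: Mir23b, Mir27b and Mir3074-1 for the first cluster, and Mir23a, Mir27a and Mir24-2 for the second. They are 6 of 1973 microRNA genes in the tables, and all 6 belong to the 333 genes with at least 10 counts in both libraries. The members were chosen by symbol, selected on their read levels in these libraries, so levels and ratios between members are given as a description, with no test. No row of its own was used for Mir24-1, the Mir24 copy of the first cluster. It lies on the other strand of the same stretch as Mir3074-1, so the reads counted opposite Mir3074-1 are the reads on the strand of Mir24-1.

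The samples were whole limb tissue of B6NCrl mouse embryos at embryonic day 14.5, with no treatment and no engineered allele named in the labels, and RNA inserts were shorter than 30 nucleotides. There was 1 group of 2 samples, biological replicates 1 and 2, each from 4 limbs. Both carry 1 donor label and sex is given as pooled, so separate animals rest on the replicate numbers and collection days, and SDs may be partly technical. The design has no contrast between conditions. The comparisons it allows are between the members, between the clusters and between the 2 libraries. In whole tissue, fewer cells of a type and less RNA per cell cannot be told apart.

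A microRNA is cut from a hairpin in a longer transcript, and neighbouring hairpins on 1 strand are commonly cut from a shared transcript. One strand of the hairpin's stem, the 5p or the 3p arm, is loaded into an Argonaute protein and guides it to mRNAs that pair with the seed. Both clusters are known in blood vessels, where miR-23 and miR-27 act on angiogenic genes. miR-27 is also known to repress Pax3 in muscle progenitors and to restrain fat cell differentiation, and miR-24 is known from muscle and blood cell differentiation.

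In GRCm38 coordinates, Mir23b lies on chromosome 13 from 63300484 to 63300557 (ENSMUSG00000065599.2) and Mir27b from 63300712 to 63300784 (ENSMUSG00000065475.2), both on the plus strand. Mir24-1 follows on the plus strand from 63301208 to 63301275, and Mir3074-1 (ENSMUSG00000092741.2) covers it on the minus strand from 63301199 to 63301283. All lie inside 2010111I01Rik, the aminopeptidase O gene, which is transcribed from the plus strand. Mir23b was intronic in all 9 transcripts of this host that span it. Mir27b was intronic in 8 of 9 and overlapped an exon of 1 transcript, which is annotated for nonsense-mediated decay. Mir24-1 was intronic in 7 of 11 and overlapped exons of 4 noncoding or decay-targeted transcripts. An intron of Fancc, a Fanconi anaemia gene, spans the same stretch on the minus strand.

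On chromosome 8, Mir23a lies from 84208518 to 84208592 (ENSMUSG00000065611.1), Mir27a from 84208672 to 84208758 (ENSMUSG00000065444.1) and Mir24-2 from 84208815 to 84208921 (ENSMUSG00000065541.1), all on the plus strand. Mir23a and Mir27a overlap no other annotated transcript. Mir24-2 reaches into an exon of the long noncoding RNA gene Gm26532. The hairpins of this cluster span 404 bases and are 79 and 56 bases apart. Those from Mir23b to Mir24-1 span 792 bases, with gaps of 154 and 423 bases. The order Mir23, Mir27, Mir24 is the same in both.

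**Figure D1:**
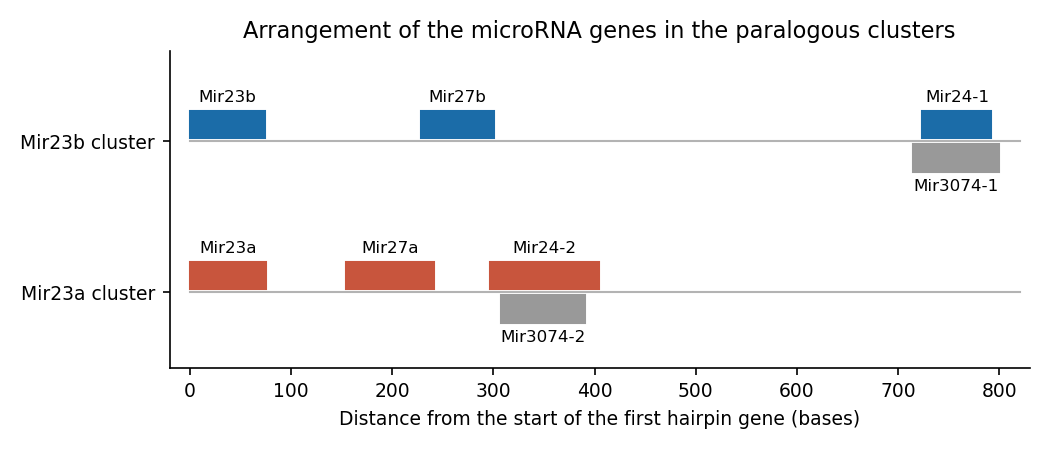
Hairpin genes of both clusters, drawn to scale by their distance in bases from the start of Mir23b or Mir23a. Boxes above a line are on the plus strand and grey boxes below it on the minus strand. The Mir23b cluster spans 792 bases and the Mir23a cluster 404 bases.

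The mature sequences show which members reads can tell apart, and they are printed from RefSeq (GRCm38.p6), 5′ to 3′, with the seed (bases 2 to 8) in capitals. The table matched 12 mature names over the 6 members, Mir24-1 and Mir3074-2, and miR-23b-3p is named only. The forms below are the 3p arms of the clusters, the 5p arms of the Mir24 copies and miR-3074-5p.
miR-23a-3p: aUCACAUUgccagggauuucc
miR-27a-3p: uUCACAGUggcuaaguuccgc
miR-27b-3p: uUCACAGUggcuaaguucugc
miR-24-3p: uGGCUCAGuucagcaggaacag
miR-24-1-5p: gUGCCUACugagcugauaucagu
miR-24-2-5p: gUGCCUACugagcugaaacagu
miR-3074-5p: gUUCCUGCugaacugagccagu

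With positions counted from 1 at the 5′ end, miR-27a-3p and miR-27b-3p differ by the single substitution C19U and have the same seed. A read of either form that includes that base matches only 1 of these loci exactly. Whether it was assigned by that base depends on the aligner, which is not given. The first 18 bases are shared, and a read of these alone matches both loci. The 5p arms of the Mir27 genes differ at 8 of 22 positions, and G3A puts 1 of them in the seed. They are printed because this difference gives the arms different seeds.
miR-27a-5p: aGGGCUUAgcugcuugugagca
miR-27b-5p: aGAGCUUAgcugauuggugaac

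The seeds of the miR-23 and miR-27 3p arms are close to each other. Over the first 8 bases, miR-23a-3p differs from miR-27a-3p by A1U and U7G, of which the second lies in the seed. The 5p arms of the Mir23 genes share only their first 3 bases when both are read from base 1, so their seeds differ.
miR-23a-5p: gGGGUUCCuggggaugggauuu
miR-23b-5p: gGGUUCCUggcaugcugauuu

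The Mir24 copies are a different case, because miR-24-3p is the same 22 bases at both loci. The hairpins of Mir24-1 and Mir24-2 share an unbroken run of 28 bases, against 20 bases for Mir23b with Mir23a and 20 bases for Mir27b with Mir27a. Of all 22-base windows in Mir24-2, 9 of 86 also occur in Mir24-1 or, on the other strand, Mir3074-1, and in Mir3074-1 9 of 64 recur in the second cluster. No window of Mir23a, Mir23b, Mir27a or Mir27b recurs in any of 1005 hairpins searched. A full miR-24-3p or miR-3074-5p read thus matches both loci, and a read that aligned more than once was left out of the gene counts. The window is longer than miR-23a-3p, miR-27a-3p and miR-27b-3p, which have 21 bases. A read of 20 bases or fewer inside the run shared by a Mir23 or Mir27 pair also matches both its genes. The 5p arms of the Mir24 copies are alike over their first 16 bases and then differ, so that full reads of them match 1 locus. The tables count reads per hairpin gene and do not separate its arms.

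Replicate 1 held 4608816 and replicate 2 held 4144385 counts on the own strand of annotated microRNA genes, and levels are given in CPM, counts scaled to 1000000 of these in each library. Reads with several alignments made up 31.8% and 32.6% of all reads. How many of them were miR-24-3p, or short reads shared by a Mir23 or Mir27 pair, was not measured. The Mir24 counts are thus lower limits, and those of the Mir23 and Mir27 genes may be. Each read stands for 1 short RNA, so levels were not scaled by length, and how evenly different microRNAs yield reads was not measured. The limb label was checked against fixed markers. Mir196b and Mir10b of the Hox clusters, Mir140 of cartilage, Mir206 of skeletal muscle, Mir203 and Mir205 of surface epithelium and Mir126a of endothelium all ranked among the first 39 of 333 genes. Of the markers of other tissues, Mir451a of blood reached 405 ± 77.4 CPM (SD, n = 2) and Mir122 of liver 9.90 ± 5.11 CPM. Mir208a of heart, Mir216a and Mir217 of pancreas stayed under 3 CPM, and Mir9-2 and Mir124a-1 of brain had 0 counts. Both brain symbols are numbered copies of a gene, and reads that aligned more than once were left out. Their 0 counts could thus arise in any tissue and do not bear on the limb label.

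The Mir23 genes dominated both clusters. Mir23b was at 42879 CPM in replicate 1 and 46457 CPM in replicate 2, or 4.47% ± 0.253 of all microRNA counts (SD, n = 2), and ranked 6 of 333. Mir23a was at 20014 and 20751 CPM, or 2.04% ± 0.0522, and ranked 14. Mir23b was thus above Mir23a in both libraries and their ranges did not overlap. The Mir23 genes together gave 6.51% ± 0.305 of the counts.

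The Mir27 genes were lower in each cluster and further apart from each other. Mir27b was at 4931 and 5391 CPM and ranked 40. Mir27a was at 513 and 506 CPM and ranked 123. Every value of Mir27b lay above every value of Mir27a. The Mir27 genes together gave 0.567% ± 0.0320 of the counts, of which Mir27b supplied 91.0% ± 0.603.

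Placed reads were fewest at the Mir24 loci, whose counts are lower limits because the miR-24-3p reads that match both loci were left out. Mir24-2 was at 258 and 264 CPM, from 1188 and 1094 counts, and ranked 151. The strand of Mir24-1, opposite Mir3074-1, held 63.1 and 71.9 CPM, from 291 and 298 counts. The own strand of Mir3074-1 held 31.5 and 29.2 CPM, from 145 and 121 counts, and ranked 241. On this stretch the strand of Mir24-1 thus had 2.01 times the reads of the Mir3074-1 strand in replicate 1 and 2.46 times in replicate 2. The 95% exact binomial intervals of these ratios, which cover counting error only, ran from 1.64 to 2.47 and from 1.99 to 3.07. The intervals of the replicates overlap, and both strands lack the reads they share with the other cluster.

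From the highest, the order of counted levels was Mir23b, Mir23a, Mir27b, Mir27a, Mir24-2, the strand of Mir24-1 and Mir3074-1. No neighbours in this order overlapped in their values over the libraries. Mir24-2, the strand of Mir24-1 and Mir3074-1 lack the reads that match both clusters. Their levels are lower limits, so their true place in this order cannot be read from these counts. As an alternative, the reads that aligned more than once were added to the total, with none added to a member. Levels then fell to 27212 CPM for Mir23b, 12420.5 CPM for Mir23a, 3144 CPM for Mir27b, 311 CPM for Mir27a and 159 CPM for Mir24-2. The like factor for every member follows from the changed total and does not bear on their order.

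**Figure D2:**
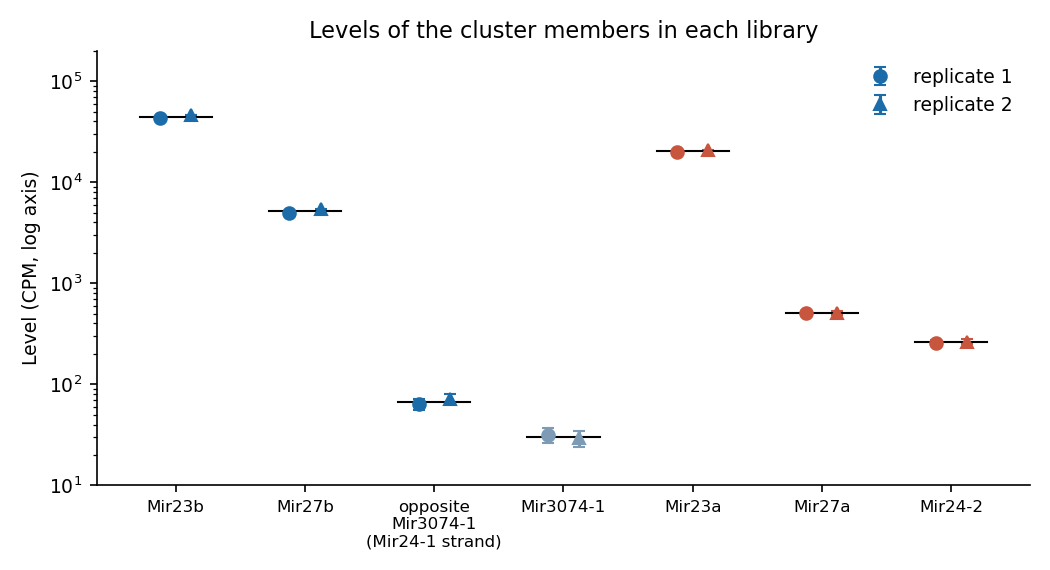
Level of each member in CPM on a log axis, with circles for replicate 1, triangles for replicate 2, black lines for the mean and error bars for exact 95% binomial intervals of counting error. Mir23b and Mir23a stand highest, and the strand of Mir24-1 and Mir3074-1 lie under 100 CPM. Reads that match both Mir24 loci are left out.

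Compared member by member in placed reads, the clusters did not differ by a common factor. Short reads shared by a Mir23 or Mir27 pair were left out, in a number that was not measured. The Mir23b to Mir23a ratio was 2.14 in replicate 1 and 2.24 in replicate 2, with intervals of 2.13 to 2.16 and 2.22 to 2.26. For Mir27b to Mir27a it was 9.60 and 10.7, with intervals of 9.21 to 10.02 and 10.2 to 11.2. For the strand of Mir24-1 to Mir24-2 it was 0.245 and 0.272, with intervals of 0.215 to 0.279 and 0.239 to 0.310. The first cluster was thus above the second for Mir23 and Mir27 and below it for the Mir24 reads that could be placed, in both libraries. The intervals of the replicates did not overlap for the Mir23 pair or the Mir27 pair, so these ratios differed between the libraries beyond counting error. For the Mir24 pair they overlapped.

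The Mir27 paralog ratio was 4.62 ± 0.197 times the Mir23 paralog ratio (SD, n = 2), at 4.48 in replicate 1 and 4.76 in replicate 2. The Mir23 paralog ratio was 8.48 ± 0.373 times that of Mir24. The Mir24 ratio leaves out the miR-24-3p reads that match both loci, and it compares what could be placed, not the output of the copies.

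**Figure D3:**
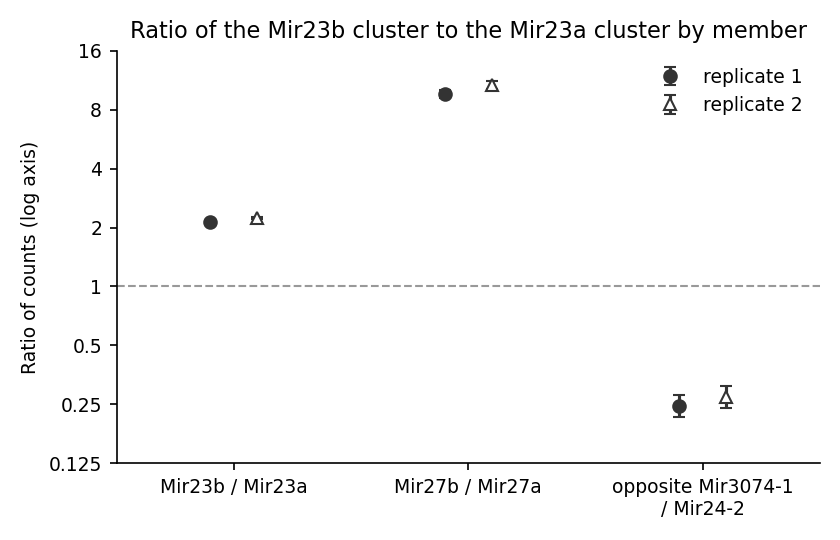
Ratio of counts, Mir23b cluster over Mir23a cluster, for each member pair on a log axis. Filled circles are replicate 1, open triangles replicate 2, bars exact 95% intervals of counting error, and the dashed line marks a ratio of 1. The Mir27 ratios stand at 9.60 and 10.7, and the Mir24 ratios lie under 1.

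Within a cluster the same difference appears as the step from Mir23 to Mir27. Mir23b was 8.70 and 8.62 times Mir27b in replicates 1 and 2, and Mir23a was 39.0 and 41.0 times Mir27a. The intervals of the replicates overlapped in each cluster, at 8.58 to 8.82 and 8.50 to 8.74 for the first and at 37.4 to 40.6 and 39.3 to 42.9 for the second. In placed reads, the step was thus several times steeper in the Mir23a cluster and was alike in both libraries.

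Among placed reads, the step from Mir27 to Mir24 went the other way. Mir27a was 1.99 and 1.92 times Mir24-2, whereas Mir27b was 78.1 and 75.0 times the strand of Mir24-1. Of the reads placed in its cluster, Mir23b gave 89.5% ± 0.0640, Mir27b 10.3% ± 0.0593 and the strand of Mir24-1 0.135% ± 0.00467. In the other cluster Mir23a gave 96.4% ± 0.0944, Mir27a 2.41% ± 0.0848 and Mir24-2 1.23% ± 0.00962. The share of each member varied little between the libraries.

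Summed, the Mir23b cluster with the strand of Mir24-1 held 47873 and 51919.9 CPM, and the Mir23a cluster 20785 and 21521 CPM. The ratio of the sums was 2.30 in replicate 1 and 2.41 in replicate 2. It follows the Mir23 genes, which hold most of both sums. Both clusters together gave 7.10% ± 0.338 of all microRNA counts.

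The 2 libraries were then compared for each gene. The two-sided exact binomial test of a gene's counts, given the library totals and with Benjamini-Hochberg adjustment over the 407 genes that summed to 10 counts or more, sets 1 library against the other and both against counting noise alone. It says nothing of the spread between samples, and at this depth it calls small shifts of abundant genes. At an adjusted p under 0.05 it called 145 of the 407 genes, or 35.6%, and 3 of the 6 members. Among the 190 genes whose mean reached 100 CPM, it called 65.8%, and 3 of the 5 members at that level. The members called were the most abundant of the 6, Mir23b, Mir23a and Mir27b. Higher in replicate 2 were 81 genes, or 19.9%, and these include the 3 members called. Lower were 64, or 15.7%, and none was a member. The split of 81 against 64 became 57 against 78 with TMM scaling and 55 against 78 with DESeq2 size factors.

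Mir23b was higher in replicate 2 by 0.12 on the log2 scale (counting SE 0.0046, binomial adjusted p = 1.75e-136), a 1.08-fold difference. Mir27b was higher by 0.13 (counting SE 0.0136, binomial adjusted p = 3.2e-20), or 1.09-fold. Both kept their direction and call under the 5 alternatives run. Both shifts are close in size to the median absolute shift of abundant genes, given below.

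Markers of several cell types also differed between the libraries by the same test. On the log2 scale Mir206 of skeletal muscle was at -0.45, Mir451a of blood at -0.39, Mir203 and Mir205 of surface epithelium at -0.36 and -0.13, and Mir10b at -0.19 in replicate 2 over replicate 1. Mir140 of cartilage was at 0.09, Mir196b at 0.14, Mir126a of endothelium at 0.02 and Mir122 of liver, from few reads, at 1.09. Their part in the shifts of Mir23b, Mir27b and Mir23a was not tested.

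Mir23a was higher in replicate 2 by 0.05 (binomial adjusted p = 1.83e-13), but this call was lost with TMM scaling (adjusted p = 0.241) and with DESeq2 size factors (adjusted p = 0.326), within a range over the alternatives from 3.67e-15 to 0.326. Mir27a had a log2 ratio of -0.02 (adjusted p = 0.810), Mir24-2 of 0.03 (adjusted p = 0.778) and Mir3074-1 of -0.11 (adjusted p = 0.783) by the same binomial test. The signs of Mir24-2 with either scaling and of Mir3074-1 with counts on either strand were the opposite. No member was called with at least a 2-fold difference, as 4 of the 407 genes, or 0.983%, were. The median absolute log2 ratio was 0.08 over the 6 members, 0.16 over all genes tested and 0.11 over those whose mean reached 100 CPM.

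**Figure D4:**
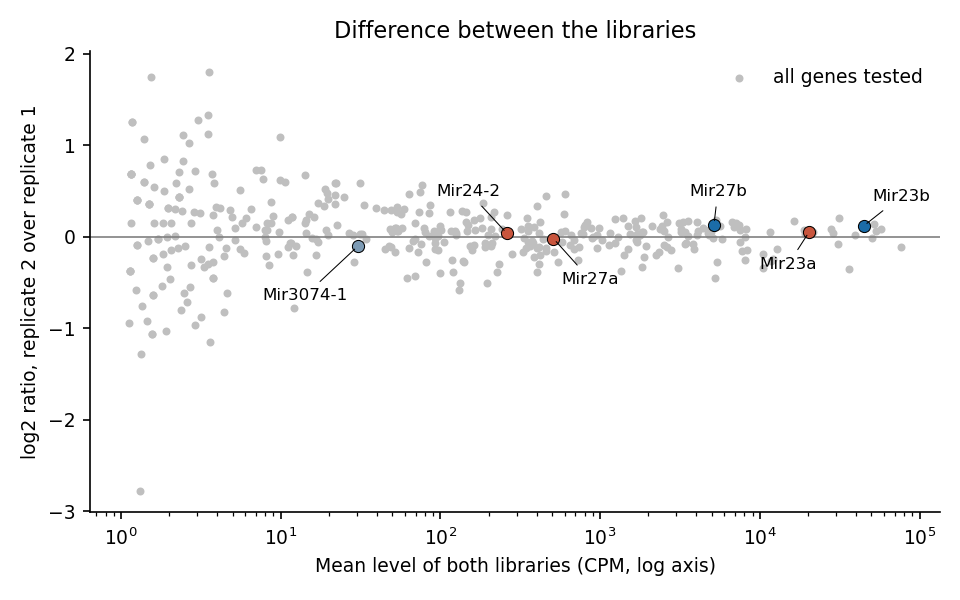
Each point is 1 of 407 genes, placed by its mean level in CPM (log axis) and by its log2 ratio of replicate 2 over replicate 1. The 6 members, coloured by cluster and named, lie between -0.11 and 0.13, near the line at 0.

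The genes nearest to each member in mean level over the 2 libraries were found next, a likeness in level alone. Mir23b ranked between Mir99a (50157 ± 294 CPM) and Mirlet7g (39181 ± 376 CPM), and Mir23a between Mir30e (21558 ± 491 CPM) and the endothelial microRNA Mir126a (19115 ± 215 CPM). For these top members the values did not overlap with either neighbour. Mir27b lay between Mir206 of skeletal muscle and Mir429 of epithelium, and Mir27a between Mir500 and Mir375. Mir24-2 lay between Mir155 and Mir350, and Mir3074-1 between Gm23935 and Mir7689. Except for Mir24-2 with Mir350, these lower members overlapped with both neighbours in their values.

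The seeds were searched over 1679 mature names. The miR-27 3p seed occurred in miR-27a-3p and miR-27b-3p only, and that of miR-24-3p in 4 other names, from Mir5124b, Mir6369, Mir6410 and Mir6413. These 4 genes had 0 counts in both libraries. miR-128-3p, a microRNA known from brain, overlaps the miR-27 seed at an offset: its bases from 1 on repeat 8 bases that start at base 2 of miR-27a-3p. It is printed with the shared bases in capitals.
miR-128-3p: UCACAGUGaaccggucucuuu

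The levels of its genes are lower limits, since their 3p arm is the same at both loci and only singly aligned reads were counted. Mir128-1 was at 196 and 186 CPM and Mir128-2 at 113 and 85.9 CPM, beside 513 and 506 CPM for Mir27a, so their order against the Mir27 genes cannot be read from these counts.

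The paralog differences were set beside 12 other pairs of related microRNA genes, with Mir18a taken under its annotated symbol Mir18. The higher gene of a pair exceeded the lower by 1.31-fold for Mir181c and Mir181d up to 6421-fold for Mir196b and Mir196a-1. The latter pair, like Mir26b and Mir26a-1, involves a gene that shares a 22-base window with another hairpin, so its lower count is a lower limit. Among 7 pairs with no shared window in either hairpin, folds ran from 1.82 for Mir221 and Mir222 to 367 for Mir18 and Mir18b, with a median of 5.85. The Mir23 pair at 2.19 ± 0.0680 (SD, n = 2) lay above 1 of these 7. The Mir27 pair at 10.1 ± 0.746 lay above 4 and below 3, which pair Mir17, Mir18 and Mir20a with Mir106a, Mir18b and Mir20b. This selection of 7 was made after the values were seen and carries no test.

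**Figure D5:**
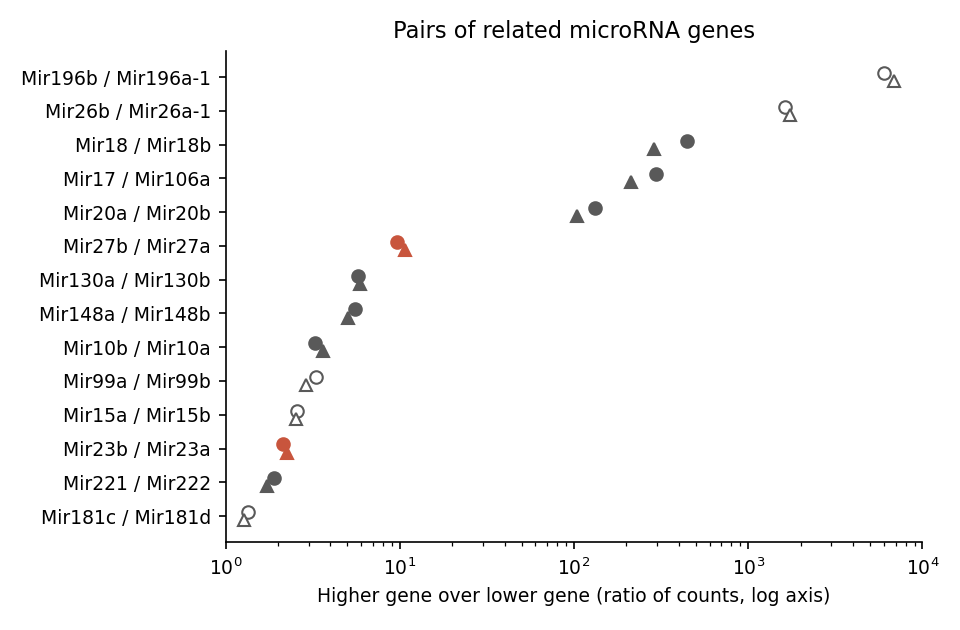
Ratio of the higher to the lower gene (log axis) in each pair, with circles for replicate 1 and triangles for replicate 2. Filled marks are pairs with no 22-base window shared with another hairpin, open marks are pairs that share one or could not be searched, and the Mir23 and Mir27 pairs are in orange. The Mir23 pair stands at 2.14 and 2.24 and the Mir27 pair at 9.60 and 10.7.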

How the data were processed

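Small RNA sequencing counts were analysed for 2 limb samples of 1 group. The authors deposited raw gene counts without normalization, from reads aligned by the authors to mm10 and counted on GENCODE M4 per the deposited read-me texts. The aligner and counter are not given in the sources used here. The 3 count columns have no header and were taken, from their values, as either strand, own strand and opposite strand. In all 1973 genes the first equals the sum of the others. The 4 tally rows (unmapped, several alignments, no feature, ambiguous) stayed out of totals and tests. Unmapped reads were 12.8% and 13.7% of all reads, reads on no gene's own strand 4.19% and 4.31%, and own-strand counts 51.2% and 49.4%. The floor of 3 counts equals 0.651 and 0.724 CPM. No molecular identifiers were recorded, so intervals cover counting error only.

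CPM were scaled to the own-strand sum. Symbols and positions came from GENCODE M21 by gene identifier without version (1894 of 1973 matched). Versions of Mir23b, Mir27b and Mir3074-1 differ between the tables and M21, so the counted stretch may differ from the positions given. Ratios carry exact Clopper-Pearson 95% intervals. Library log2 ratios used a prior count of 0.5. With 1 library per side, edgeR's quasi-likelihood test had no residual degrees of freedom and could not be run. The binomial test was checked on counts simulated with counting noise alone, so the check says nothing of the spread between real libraries. Alternatives were TMM factors (edgeR 4.0.16), DESeq2 1.42.0 size factors, other count filters, other totals and the either-strand column, run in R 4.3.3 and in Python 3.11.15 with scipy 1.17.1, pandas 2.3.3 and numpy 2.4.6, and drawn with matplotlib 3.10.9.

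Named genes were the members, the fixed pairs, the markers, genes that share a seed or an offset seed, and the gene next above and below each member in mean CPM. Members and lists were chosen with earlier results of these data known.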

Additional observations from a re-analysis of the deposited data

Results flagged for a closer look

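Reads on the opposite strand of Mir24-2, the strand of Mir3074-2, enter no comparison above. They numbered 6 counts (1.30 CPM) in replicate 1, above the 3 counts that a count of 0 allows, and 2 counts (0.483 CPM) in replicate 2, below it.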

How the results depend on the processing

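No paired analysis was possible because there is 1 group. Leaving out a replicate leaves the other's value, printed above for each ratio, and no library test can be had with 1 library left. With counts on either strand, in place of the strand of Mir24-1 alone, its ratio to Mir24-2 was 0.374, that of Mir27b to it 52.7 and that of Mir23b to it 456, since the reads of Mir3074-1 are then included. The cluster ratio was 2.36 as reported, 2.36 with own-strand counts only and 2.38 over the Mir23 and Mir27 genes. Of the 145 genes called between the libraries, the alternatives gave 133 to 155. With at least 100 counts required, 0 genes passed the 2-fold threshold, against 4, and 146 were called without it (157 at an unadjusted p under 0.05). The log2 ratio of Mir24-2 was -0.0069 with TMM and -0.0083 with DESeq2 size factors, and that of Mir3074-1 was 0.10 with counts on either strand. The cause was not tested. The stretch of Mir3074-1 rests on 121 to 298 counts per strand and library.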
